A study of Mus musculus with 8 samples.

Results

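The genes described here are 9 transcription factors that mark amacrine cells or subsets of them, namely Tfap2a, Tfap2b, Tfap2c, Pax6, Meis2, Ebf1, Ebf3, Neurod6 and Barhl2. They were chosen by name, with earlier results of these data known, and they are 9 of the 17500 genes in the table of retinal RNA counts. All 9 passed the filter on low counts, as did 16797 genes in all. RNA-seq was run on whole retinas of 8 mice on the C57BL/6J background, each 6 months old. The Rbfox2 KD group held 4 mice (M893, M901, M902 and M909) that carry Rbfox2 fl/fl and a tamoxifen-inducible Cre transgene. This transgene is not limited to amacrine cells. In the retina, the study cites strong Cre reporter expression in ganglion cells, displaced and inner amacrine cells, and sparse cells that are most probably horizontal cells. The control group held 4 mice (M833, M894, M896 and M898), which the study's methods describe as age-matched Rbfox2 fl/+ heterozygotes. The labels list tamoxifen, given 4 months earlier, for all 8 mice, and 1 library came from each mouse. The study's text mentions tamoxifen 4 months earlier only for the Rbfox2 KD mice, and its methods also name a corn oil vehicle. Whether the controls received tamoxifen, or carried the Cre transgene, is thus not settled here.

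Amacrine cells are inhibitory interneurons of the inner retina, and most release GABA or glycine onto bipolar cells, ganglion cells and one another. The AP-2 proteins encoded by the Tfap2 genes bind DNA as dimers, and AP-2α and AP-2β act together in the development of amacrine and horizontal cells. Pax6, a paired-box and homeobox factor, is needed for the multipotency of retinal progenitors and stays on in amacrine, ganglion and horizontal cells. Meis2 is a TALE homeobox factor found in many GABAergic amacrine cells, Ebf1 and Ebf3 are helix-loop-helix factors of amacrine, bipolar and ganglion cell subtypes, Neurod6 marks a small amacrine population with neither GABA nor glycine, and Barhl2 takes part in the specification of amacrine subtypes and in ganglion cell survival. Rbfox2 is an RNA-binding protein that recognises the element (U)GCAUG, where the U in brackets is optional. Its protein is present in ganglion cells, horizontal cells and GABAergic amacrine cells of the mouse retina, so the comparison asks whether the RNA of the factors that define amacrine cells differs when Rbfox2 is reduced.

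The Rbfox element was looked for in the mature RNA of each gene, since that is where a stretch recognised by Rbfox2 would be read in the RNA counted here. The search used 1 annotated transcript per gene (GENCODE M21, GRCm38, the assembly that mm10 names) and the transcript strand only. It took the DNA letters of the full element (TGCATG), so copies without the first base (GCATG) were not looked for. The 3′ UTR of 3 of the 9 genes held 1 copy, against 31.9% of 14863 tested genes with an annotated 3′ UTR, and the coding part of Pax6 held 1, against 30.8% of genes. Each copy is shown with 10 bases on either side, 5′ to 3′, with the element in capitals.
Tfap2c 3′ UTR: acacagcaggTGCATGggagtcgtca
Neurod6 3′ UTR: atgatgaaaaTGCATGttataaaaat
Ebf3 3′ UTR: gtaggttctgTGCATGtgaagcggcc
Pax6 coding part: ctcatactcgTGCATGctgcccacca

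The Tfap2c stretch lies at chr2:172557716-172557741 on the plus strand, and its element starts at base 350 of a 3′ UTR of 1246 bases. The Neurod6 stretch lies at chr6:55678222-55678247 on the minus strand, with the element from base 400 of 815. The Ebf3 stretch lies at chr7:137194886-137194911 on the minus strand, with the element from base 1470 of 2698. The Pax6 stretch lies at chr2:105695329-105695354 on the plus strand, with the element from base 1066 of 1269 coding bases. Among genes with a 3′ UTR of like length, 34.6%, 24% and 58.9% held the letters for Tfap2c, Neurod6 and Ebf3. The 3′ UTR of Tfap2b, at 4229 bases, held none, while 77% of genes with one of like length did. These are matches of letters. The transcripts searched for Ebf1, Meis2 and Tfap2b had 3422, 3718 and 5863 bases, against 5322, 4642 and 6132 bases in the authors' gene lengths. Part of the RNA counted for these genes may thus not have been searched. Those of Pax6 and Tfap2a were longer than the authors' lengths. Introns, where many Rbfox elements act in splicing, were not searched, and gene counts do not show which exons are used.

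Rbfox2 itself was measured first, as a check of the labels. In CPM, the count of a gene relative to the library's total after TMM scaling, Rbfox2 stood at 143.8, 149.8, 156.8 and 148.1 in the control mice M833, M894, M896 and M898. It stood at 53.9, 58.9, 53.6 and 59.4 in the KD mice M893, M901, M902 and M909. The groups were far apart, and Rbfox2 fell by 1.41 on the log2 scale (SE 0.046, edgeR quasi-likelihood test, adjusted p = 5.5e-07), a level that fell by 62.3% in whole retina. By the study's immunostaining, few cells of the ganglion cell layer and no horizontal cells kept the protein. Its loss in amacrine cells of the inner nuclear layer was robust but smaller than in the ganglion cell layer. The whole-retina value thus does not give the loss in amacrine cells.

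The depth and composition of the libraries bear on every value that follows. The total count per mouse ran from 160630226 to 211283591, so that 3 counts, the limit that a count of 0 would allow, equal 0.0144 to 0.0189 CPM. Xist, which is transcribed from the inactive X chromosome, was at 1440 and 1739 CPM in M901 and M902 and at no more than 2.2 CPM in the other 6 mice. The Y-linked genes Ddx3y, Eif2s3y, Kdm5d and Uty were at no more than 0.316 CPM in M901 and M902, while Ddx3y was at 60.5 to 69.5 CPM in the other 6. All 4 controls and 2 KD mice thus had the male pattern and 2 KD mice the female one, so sex was not balanced between the groups. The first principal component (40.5% of the variance of log2 CPM) set M901 and M902 apart. The second (19.2%) set M909 apart, which had 79.7 CPM over 5 surface epithelium markers against 2.3 to 7.18 CPM in the other KD mice and 1.254 to 3.06 CPM in controls. The 9 ciliary and pigment epithelium markers summed to 73.7 to 440 CPM in controls and 49.7 to 150 CPM in KD mice. Their part in the results on the amacrine factors was not tested. Values without M901 and M902 are given below where they change a direction.

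Per length, Pax6 was the most abundant of the 9 factors and Neurod6 by far the least. In FPKM, the deposited unit of fragments per length of transcript and per depth of library, the mean over the 8 mice was 115.3 ± 5.34 (SD, n = 8) for Pax6, 39.9 ± 1.16 for Meis2, 38.2 ± 1.58 for Tfap2b and 18.2 ± 0.997 for Tfap2a. Ebf3 followed at 11.6 ± 0.800, Barhl2 at 10.1 ± 0.585, Ebf1 at 7.64 ± 0.637, Tfap2c at 5.71 ± 0.216 and Neurod6 at 0.441 ± 0.0648 FPKM. Pax6 made up 46.7% of the summed mean FPKM of the 9 genes, and Neurod6 0.178%. Whole retina also holds ganglion, horizontal and Müller cells that express Pax6, so its level is not that of amacrine cells alone.

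**Figure D1:**
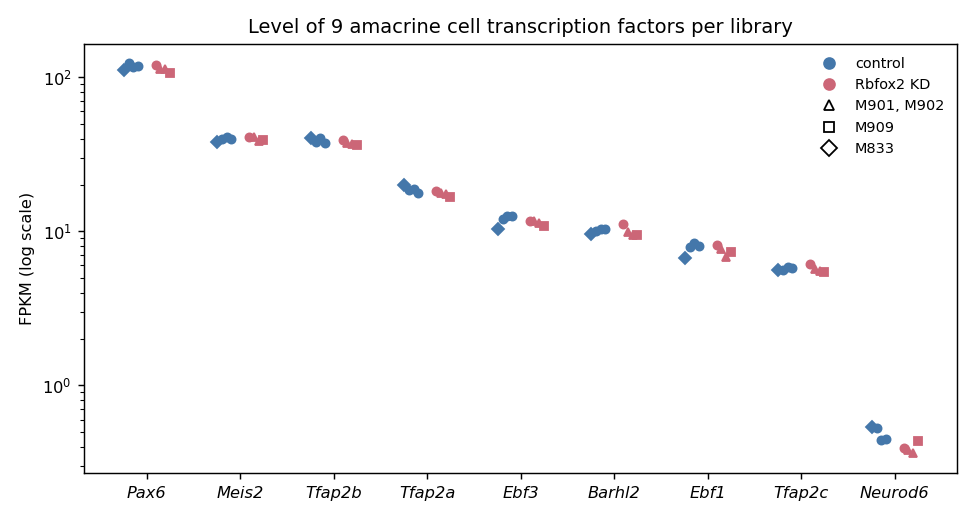
Deposited FPKM (log scale) of the 9 factors in each of the 8 libraries, ordered by mean level, with control mice in blue and Rbfox2 KD mice in red. Pax6 (106 to 123 FPKM) lies above all others and Neurod6 (0.361 to 0.536 FPKM) below all others in every library.

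The order of the levels was the same in 7 of the 8 libraries. Only Meis2 and Tfap2b changed places, in control mouse M833, where Tfap2b was the higher. These neighbours lay within their spread, with Meis2 at 38.2 to 41.2 FPKM and Tfap2b at 36.1 to 40.5 FPKM. Ebf3 and Barhl2 also had overlapping ranges, 10.3 to 12.6 and 9.44 to 11.2 FPKM, although Ebf3 was the higher in each of the 8 mice. All other neighbours had ranges that did not meet. The widest step was between Tfap2c and Neurod6, a ratio of 13 in mean FPKM.

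No difference between Rbfox2 KD and control retinas passed the test for any of the 9 factors. With edgeR's quasi-likelihood test and Benjamini-Hochberg adjustment over all genes tested, 0 of 9 had an adjusted p under 0.05, where 0.0655% of all genes did (0.0357% higher and 0.0298% lower in KD). The count at an unadjusted p under 0.05 was also 0 of 9, against 13.3% of all genes (6.42% higher and 6.87% lower). The groups failed to overlap for 0 of 9, against 7.03% of all genes (3.64% higher and 3.39% lower). DESeq2 called 0 of the 9 as well, with 2.77% of all genes called, and limma-voom and limma-trend called 0. The median log2 fold change (KD minus control) of the 9 was -0.041, against 0.0016 over all genes tested, and 6 of 9 were negative, against 49.3% of all genes. For the 8 factors other than Neurod6, the 95% intervals of the change lay between -12.5% and 9.0%.

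**Figure D2:**
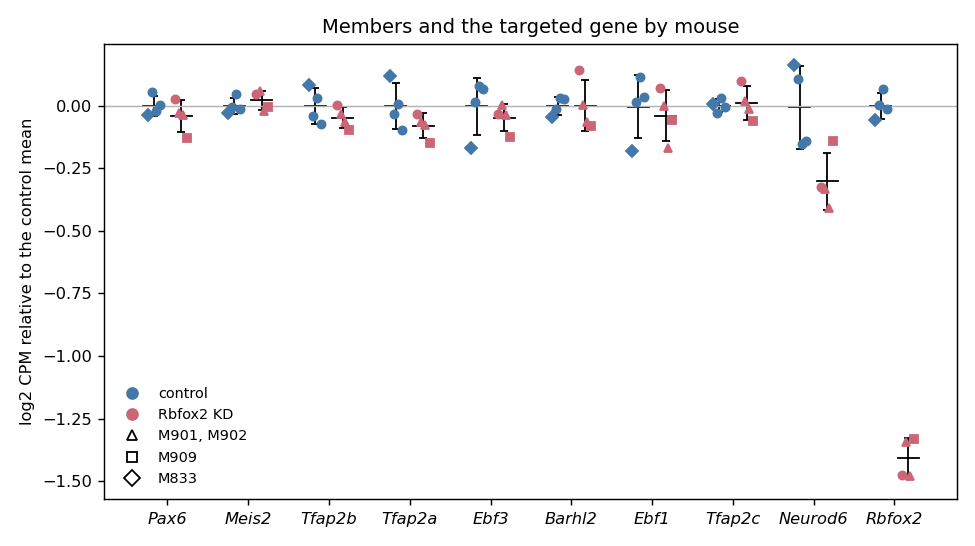
log2 CPM of each factor and of Rbfox2 in each mouse, relative to the mean of the control mice, with mean and SD per group as horizontal and vertical black lines. Rbfox2 is the only gene shown whose groups are apart, and 3 of 4 KD mice lie below every control mouse for Neurod6.

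Among the AP-2 factors, Tfap2a, which encodes AP-2α, was at 63.1, 56.7, 58.3 and 54.3 CPM in control mice M833, M894, M896 and M898, and at 56.8, 55.6, 55.1 and 52.4 CPM in KD mice M893, M901, M902 and M909. M833 stood highest and M909 lowest, and the groups overlapped. The log2 fold change was -0.080 (SE 0.050, 95% interval -0.19 to 0.031, edgeR adjusted p = 0.523).

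Tfap2b, which encodes AP-2β, was at 252.4, 231.4, 243.2 and 226.2 CPM in the controls and at 238.5, 233.0, 227.9 and 222.6 CPM in the KD mice, in the same order of mice. The highest and lowest mice were again M833 and M909. Its log2 fold change was -0.048 (SE 0.042, 95% interval -0.14 to 0.047, edgeR adjusted p = 0.662). Tfap2c, which encodes AP-2γ, was at 16.2, 15.8, 16.5 and 16.1 CPM in controls and at 17.3, 16.4, 16.0 and 15.5 CPM in KD mice. Its highest and lowest values were both in KD mice, M893 and M909, and the 4 controls lay between them. The difference was 0.011 (SE 0.048, 95% interval -0.095 to 0.12, edgeR adjusted p = 0.945).

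Of the homeobox genes, Meis2 and Pax6 had the narrowest intervals of the 9 factors and Barhl2 a middling one. Pax6 was at 296.7, 316.0, 300.4 and 305.3 CPM in controls and at 310.3, 298.8, 296.4 and 278.5 CPM in KD mice, again lowest in M909. Its log2 fold change was -0.041 (SE 0.041, 95% interval -0.13 to 0.050, edgeR adjusted p = 0.701). An antisense gene, Pax6os1, overlaps Pax6, and annotated genes on the opposite strand also overlap Tfap2a, Ebf1 and Ebf3. The strand setting of the counting is not given in the sources used here, so reads of these factors and of their antisense genes may not be told apart.

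Meis2 was at 180.0, 183.1, 189.5 and 181.9 CPM in controls and at 189.8, 191.4, 181.1 and 183.1 CPM in KD mice, which overlapped almost fully. The log2 fold change was 0.021 (SE 0.032, 95% interval -0.051 to 0.094, edgeR adjusted p = 0.818). Its SD of log2 CPM between mice of a group, 0.036, was at percentile 10.4 of genes of like level. Barhl2 was at 22.6, 23.0, 23.8 and 23.7 CPM in controls and at 25.7, 23.3, 22.2 and 22.0 CPM in KD mice. M893 was the highest and M909 the lowest, with a log2 fold change of 0.0020 (SE 0.055, 95% interval -0.12 to 0.12, edgeR adjusted p = 0.992).

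The helix-loop-helix genes Ebf1 and Ebf3 varied most between mice of a group for their level. Ebf1 was at 36.3, 41.5, 44.6 and 42.2 CPM in controls and at 43.3, 41.1, 36.6 and 39.5 CPM in KD mice. Ebf3 was at 52.7, 59.9, 62.6 and 62.1 CPM in controls and at 58.0, 59.4, 57.8 and 54.4 CPM in KD mice. The control mouse M833 was the lowest of all 8 for both, and M896 the highest.

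The within-group SD of log2 CPM was 0.114 for Ebf1 and 0.090 for Ebf3, at percentiles 86 and 77.1 of genes of like level. The log2 fold changes were -0.037 for Ebf1 (SE 0.070, 95% interval -0.19 to 0.12, edgeR adjusted p = 0.859) and -0.048 for Ebf3 (SE 0.057, 95% interval -0.17 to 0.078, edgeR adjusted p = 0.752). Without M901 and M902 the Ebf1 value was 0.0049. Both factors are also known in ganglion cells. The 11 ganglion cell markers summed to 810 CPM in M833 and to 1254 to 1302 CPM in the other controls, and to 1003 CPM in M909 and 1164 to 1330 CPM in the other KD mice. Whether this has a part in the low Ebf1 and Ebf3 of M833 was not tested.

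Neurod6 was the factor with the lowest level and the widest interval. It was at 1.17, 1.13, 0.940 and 0.949 CPM in the controls, from 244, 199, 180 and 168 counts. It was at 0.835, 0.830, 0.788 and 0.948 CPM in the KD mice, from 147, 160, 125 and 182 counts. M893, M901 and M902 lay below every control, while M909 lay between the control values of M896 and M898.

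The mean was 1.05 ± 0.12 CPM (SD, n = 4) in controls and 0.850 ± 0.069 CPM (SD, n = 4) in KD mice, a log2 fold change of -0.30 (SE 0.14, 95% interval -0.61 to 0.0069). This did not pass the test (edgeR, unadjusted p = 0.0544, adjusted p = 0.387). The interval runs from a level 34.3% lower to one 0.478% higher. Counting error alone would give an SD of log2 CPM of 0.111 between mice, beside the 0.140 observed. With 15 alternative settings, the log2 fold change ran from -0.35 to -0.23 and was never called, with adjusted p from 0.238 to 0.932, the highest and the value of -0.23 being those without M901 and M902. In whole retina, fewer cells of a type and less RNA per cell cannot be told apart for this gene or any other.

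**Figure D3:**
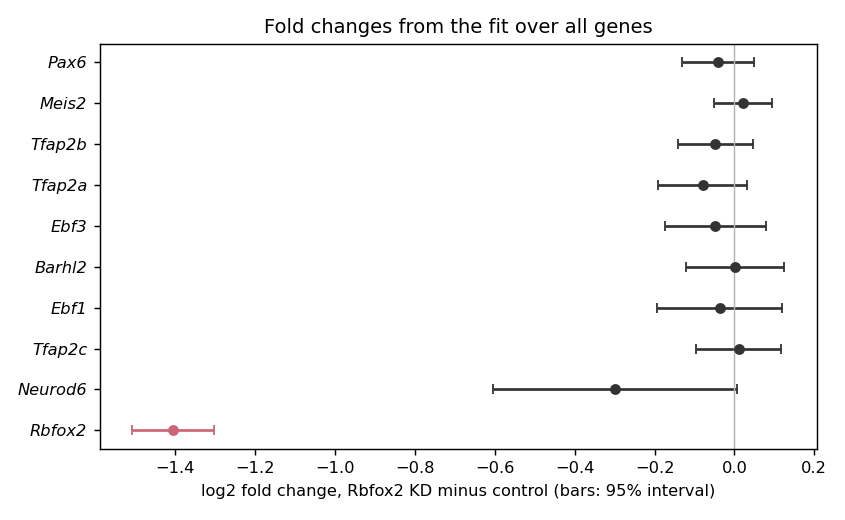
log2 fold change (KD minus control) of the 9 factors and Rbfox2, with 95% intervals from the edgeR fit over 16797 genes. Rbfox2 is at -1.41, 8 factors lie within 0.08 of 0, and Neurod6 is at -0.30 with an interval that reaches 0.0069.

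Relative to Pax6 in the same library, a measure that does not depend on the scaling of libraries, the groups overlapped for each of the other 8 factors. The mean log2 ratio to Pax6 differed by -0.25 for Neurod6, from -8.19 ± 0.17 (SD, n = 4) in controls to -8.45 ± 0.17 (SD, n = 4) in KD mice. The differences of the other 7 ran from -0.036 for Tfap2a to 0.063 for Meis2.

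Tfap2a and Tfap2b varied together between mice. Of all 16797 genes tested, the gene whose log2 CPM over the 8 libraries was most like that of Tfap2a was Tfap2b, and the reverse also held (Pearson's r = 0.965, Spearman's rho = 0.976, n = 8). Without M833 and M909, the mice farthest from the median of Tfap2a, r was 0.923 over 6 mice. Without M833 and M896, the farthest from the median of Tfap2b, it was 0.894. The ratio of Tfap2b to Tfap2a FPKM was 2.08 ± 0.041 (SD, n = 4) in controls and 2.13 ± 0.023 (SD, n = 4) in KD mice, between 2.03 and 2.16 in every mouse.

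The other pairs were looser. The r of Ebf1 and Ebf3 was 0.752, and 0.611 without the mice M833 and M909, which lay farthest from the median of Ebf3. Their FPKM ratio (Ebf3 to Ebf1) ran from 1.42 to 1.67. Tfap2c was less like Tfap2a (r = 0.382) than like Barhl2 (r = 0.890), but the latter rested on M893 and M909, without which it was 0.457. Over the 36 pairs of factors the median r was 0.345, and 12 pairs were above 0.5. Among 1500 genes taken evenly from the table the median was -0.0034, with 13.7% of pairs above 0.5. The points of these correlations share library, depth and tissue composition, and they are given as descriptions.

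**Figure D4:**
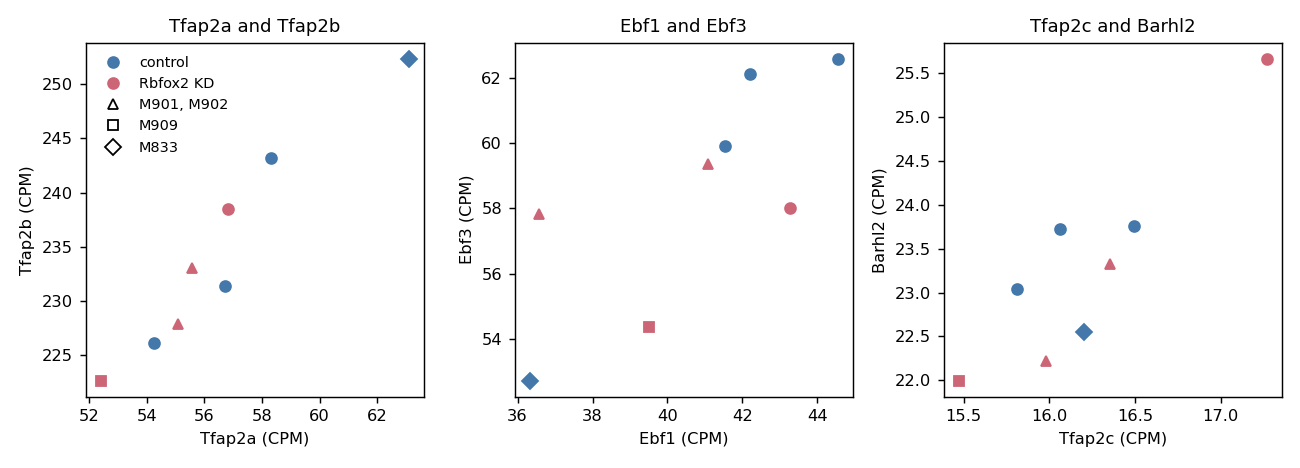
CPM of 3 pairs of factors in the 8 mice, 1 point per mouse, with control mice in blue and KD mice in red and axes that do not start at 0. Tfap2a and Tfap2b lie along a line from M909 to M833, and the pair of Tfap2c and Barhl2 was picked after its values were seen.

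For the remaining factors, the genes of most like pattern named here belonged to no list used here. They were Abtb2 and Kpnb1 for Tfap2c (r = 0.976 and 0.971), 1110059E24Rik for Meis2 (0.965), Cacng5 and Htr1d for Ebf1 (0.988 and 0.958), and Prokr1 and Vsnl1 for Ebf3 (0.997 and 0.987). Zfp704 and Fam104a came first for Neurod6 (0.957 and 0.948), and Lrtm2 and Ddit3 for Barhl2 (0.968 and 0.962). The next genes for Tfap2a and Tfap2b were Emc8 (0.947) and Ept1 (0.946). Ppifos for Pax6 (0.958) and Gm4894 for Meis2 (0.955) were at 0.063 and 0.060 CPM, where few counts set the values. The highest r was not far above the next ones in every case. Ebf3 had 32 genes within 0.05 of its highest r, Ebf1 12.

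Shares of low p-values among the paralogs of the 9 factors, and among their partners and inhibitors, were near or below the 13.3% of all genes. Of 9 paralogs tested (Tfap2d, Tfap2e, Meis1, Meis3, Ebf2, Ebf4, Neurod1, Neurod2 and Neurod4), 0 passed the edgeR test and 1 had an unadjusted p under 0.05 (11.1%). That gene was Meis3, a TALE homeobox factor, with a log2 fold change of -0.12 (SE 0.050, adjusted p = 0.353). Neurod1, a factor of photoreceptors and amacrine cells, had 0.17 (SE 0.078, adjusted p = 0.397). The median log2 fold change of the 9 paralogs was -0.041.

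Of 15 partners and inhibitors, among them the Pbx and Pknox partners of Meis proteins, the Cited coactivators and Kctd repressors of AP-2, and the E proteins that pair with Neurod factors, 0 passed and 1 had an unadjusted p under 0.05 (6.67%). That gene was Tcf12, an E protein, at 89.7 to 94.1 CPM in controls and 83.9 to 89.5 CPM in KD mice. Its groups did not overlap, but the log2 fold change of -0.095 (SE 0.032) did not pass the test (edgeR adjusted p = 0.276). Kctd15, an inhibitor of AP-2α, had 0.087 (SE 0.044, adjusted p = 0.420).

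Of 22 other amacrine factors listed, 21 were tested and Foxn4 was left out by the filter, 0 passed the edgeR test, and 8 had an unadjusted p under 0.05, 6 of them lower in KD (38.1% in either direction, against 13.3% of all genes). The list was chosen with earlier results of these data known, and its difference from the 9 was not tested. Isl1, a LIM homeobox factor of cholinergic amacrine, ON bipolar and ganglion cells, was at 66.6, 69.6, 65.6 and 69.1 CPM in controls and at 60.3, 59.3, 61.6 and 57.0 CPM in KD mice. The groups did not overlap, and the log2 fold change was -0.19 (SE 0.037, edgeR adjusted p = 0.116). DESeq2 called it (adjusted p = 0.000929). Lmo4, a LIM-only cofactor, was at 45.1 to 51.0 CPM in controls and 42.2 to 43.6 CPM in KD mice, with -0.16 (SE 0.043, edgeR adjusted p = 0.216, DESeq2 adjusted p = 0.0326). Ptf1a, an early amacrine determinant, is marked in the plot of the lists for its distance from the rest, but it lay at only 0.058 to 0.104 CPM in controls and 0.068 to 0.265 CPM in KD mice.

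Of 27 transmitter and peptide genes of amacrine cells, 0 passed the edgeR test and 7 had an unadjusted p under 0.05, 4 higher and 3 lower (25.9%). Of the genes for GABA and glycine, Gad1, which makes GABA, had a log2 fold change of 0.035 (95% interval -0.066 to 0.14). Slc32a1, the vesicular transporter of GABA and glycine, had -0.0098 (95% interval -0.081 to 0.061). Gad2 had -0.064 (95% interval -0.15 to 0.026). The glycine transporters were lower in every KD mouse than in every control, but neither passed the test. Slc6a9 had -0.079 (95% interval -0.16 to 0.0013, edgeR adjusted p = 0.383) and Slc6a5 -0.21 (95% interval -0.35 to -0.062, edgeR adjusted p = 0.257). These 5 genes were named after their values were seen.

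The extremes of that list were Crh and Penk. Crh, corticotropin-releasing hormone, was at 0.572, 0.831, 0.632 and 0.401 CPM in controls and at 1.48, 1.82, 1.42 and 1.20 CPM in KD mice. Every KD value was above every control value. The log2 fold change was 1.28 (SE 0.22, edgeR adjusted p = 0.0837, DESeq2 adjusted p = 2.0e-05). Th, tyrosine hydroxylase of dopaminergic amacrine cells, was at 5.33, 5.30, 5.54 and 4.10 CPM in controls and at 6.96, 7.99, 6.09 and 6.80 CPM in KD mice, again without overlap, with 0.46 (SE 0.11, edgeR adjusted p = 0.182, DESeq2 adjusted p = 0.0083). Penk, proenkephalin, had the lowest log2 fold change at -1.23 (SE 0.70, adjusted p = 0.479), with 7.58 and 6.99 CPM in M901 and M902 and 65.8 and 66.7 CPM in the other KD mice. Best2, a ciliary epithelium marker, was at 0.150 and 0.208 CPM in M901 and M902 and at 4.26 and 4.14 CPM in the other KD mice. Col1a2, a fibroblast collagen, was at 1.88 and 2.95 CPM in M901 and M902 and at 10.98 and 12.6 CPM in the others. Penk and Best2 were both highest in control M898, at 133.9 and 16.0 CPM. The 8 pericyte and fibroblast markers summed to 56.0 to 72.0 CPM in controls and 43.7 to 64.6 CPM in KD mice, and the part of such cells in the Penk values was not tested. Penk, Best2 and Col1a2 were singled out after their values were seen.

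**Figure D5:**
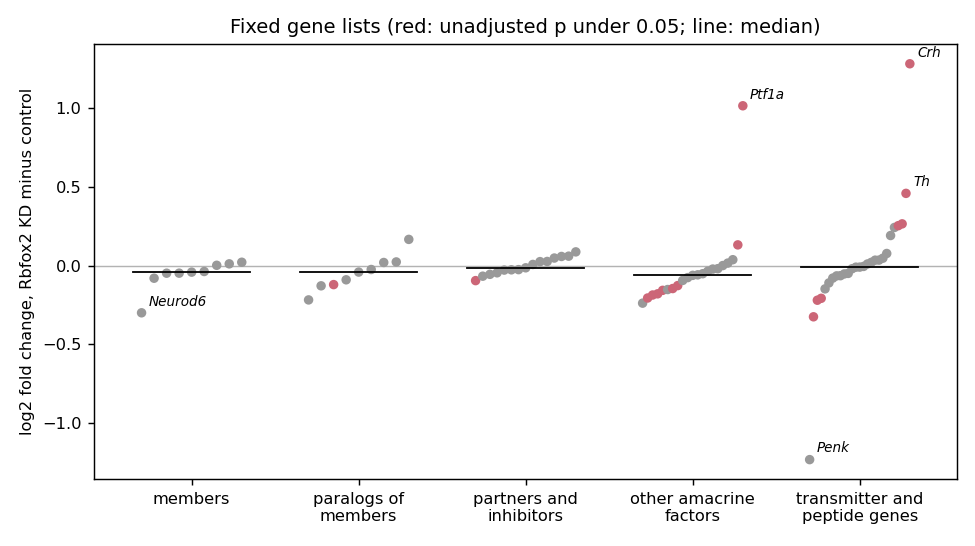
log2 fold change (KD minus control) of each tested gene in 5 lists, sorted within a list, with the list's median as a black line and genes with an unadjusted p under 0.05 in red. The 9 amacrine factors have no red point, and the extremes are Crh at 1.28 and Penk at -1.23 among the transmitter and peptide genes.

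Markers of the other retinal cell types put these values in context. Among 11 ganglion cell markers 0 had an unadjusted p under 0.05, and among 5 horizontal cell markers tested 2 did (40%, against 13.3% of all genes). Calb1, a calcium-binding protein of horizontal cells and some amacrine cells, was the only gene of the marker lists to pass the edgeR test. It fell by 0.40 on the log2 scale (SE 0.036, adjusted p = 0.0034), and without M901 and M902 its adjusted p was 0.0501. None of 8 bipolar, 10 photoreceptor, 6 Müller glia, 6 microglia, 5 endothelial, 8 pericyte and fibroblast, 9 ciliary and pigment epithelium, 2 lens, 5 surface epithelium or 3 B lymphocyte markers tested passed, and neither did the 5 sex-linked genes. At an unadjusted p under 0.05 these counts were 3, 4, 1, 0, 1, 2, 4, 1, 4, 0 and 1. In the same order the shares were 37.5%, 40%, 16.7%, 0%, 20%, 25%, 44.4%, 50%, 80%, 0% and 20%, against 13.3% of all genes. Of the genes with the lowest p in these lists, DESeq2 called Pcp2, Opn1sw, Gnat1, Glul, Rgs5, Krt5 and Xist. They were picked for a low edgeR p in the same counts. The 2.77% of all genes that DESeq2 called is thus no measure for them. Krt5 was at 24.7 CPM in M909 and at 0.557 to 2.47 CPM in the other KD mice, and Xist was high only in M901 and M902.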

How the data were processed

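Per the study's methods, poly(A) libraries were aligned to mm10 with STAR and uniquely mapped fragments counted with HTSeq. The deposited counts are whole numbers per gene, not normalized, and each listed gene reached 5 counts in 4 or more of the mice. The deposited FPKM are counts per total and per 1 length per gene, by the authors. The methods name both RefSeq and Ensembl annotation. The authors' adjusted signal, fold changes and p-values, and columns of single mice against a group, were not used. The submitters' processing notes also name CASAVA 1.8.2 and edgeR.

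Counts were filtered (filterByExpr), scaled by TMM and tested with edgeR 4.0.16 (R 4.3.3, quasi-likelihood, no covariates), with Benjamini-Hochberg adjustment over 16797 genes. Intervals use the SE and the total degrees of freedom of that fit (median 9.95), not the residual ones alone. DESeq2 1.42.0 and limma 3.58.1 were alternatives, beside another scaling, other count filters and each mouse left out. The fit was also run on simulated counts with known changes, drawn without differences of sex or tissue composition between mice. That run cannot show how such differences bear on the results. P-values, and the intervals of the edgeR fit, take the spread between mice into account. Floors from counts, and the SD that counting error alone would give, cover counting error only. All replicate pairs differed beyond sampling noise. log2 CPM for correlations used a prior count of 2.

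The 9 factors and the gene lists were chosen with earlier results of these data known. Named genes are the 9, Rbfox2, in each list the genes called or else the 2 with the lowest p, and for each factor the 2 genes of most like pattern, of which 1 is not reported here.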

Additional observations from a re-analysis of the deposited data

Results flagged for a closer look

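No value of the 9 amacrine factors stood apart from its group. Among 86 groups of 4 mice, 7 held a mouse whose gap to the nearest other exceeded the 95% critical value of Dixon's test, where chance gives about 4.3 (1 in 20). In the controls these were Meis3 in M894 (29.3 CPM against 26.4 to 26.6), Th in M898 (4.10 CPM against 5.30 to 5.54) and Nefh, a neurofilament of ganglion cells, in M833 (88.1 CPM against 129 to 131). In the KD mice they were Cdh5 of endothelium in M902 (3.37 CPM against 5.42 to 5.56), the lens gene Bfsp1 in M909 (0.214 CPM against 0.415 to 0.425), and the keratins Krt5 (24.7 CPM against 0.557 to 2.47) and Krt15 (39.3 CPM against 0.449 to 3.27), both in M909.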

How the results depend on the processing

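None of the 9 factors was called under any of 15 alternatives each. Tfap2a, Tfap2b, Pax6, Meis2, Ebf3 and Neurod6 kept their direction in all 15. The log2 fold change of Tfap2c turned to -0.019 without M893. That of Ebf1 turned to 0.0031 without M896, 0.0030 without M902 and 0.0049 without M901 and M902. Barhl2, near 0, turned to -0.00037 with limma-trend, -0.0051 with upper-quartile scaling, -0.016 without M833, -0.0025 without M894 and -0.047 without M893. Among other genes, C1qa turned to 0.013 without M901 and M902, Bfsp1 to 0.0033 without M833 and 0.095 without M909, and Cd79a to -0.054 without M909. With single mice left out, the other ends of the ranges were 0.035 for Tfap2c, -0.095 for Ebf1, 0.029 for Barhl2, -0.18 for Bfsp1 and 0.57 for Cd79a. The cause was not tested.

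The 11 calls over all genes became 465 with DESeq2 and 1 without M901 and M902. With single mice left out they ran from 5 to 35, at 35 without M833, 19 without M894, 9 without M902, 6 without M898, and 5 without M896, M893, M901 or M909. By CPM, not per length, Tfap2b ranked 2, Meis2 3, Ebf3 4, Tfap2a 5, Ebf1 6 and Barhl2 7. No paired analysis was possible because the labels name no litter or batch that would pair control and KD mice. Counting error weighs most on Neurod6, with 125 to 244 counts per mouse, while the other factors had at least 2535.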
